A study of Mus musculus with 12 samples.

Results

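The genes described here are the cofactors of Hox proteins that carry a homeodomain of the TALE class, so called for a loop of extra amino acids in the homeodomain. They were chosen by name, by a rule that uses no measured value, though with earlier results of these data known: Meis1, Meis2 and Meis3 of the Meis subfamily, Pbx2, Pbx3 and Pbx4 of the Pbx subfamily, Pknox1 and Pknox2 (also called Prep1 and Prep2), and the repressor gene Tgif1. They make up 9 of the 55416 genes counted, and all 9 were among the 17940 genes that passed the low-count filter. RNA sequencing was done on mouse embryonic stem cells labelled Bl/6J in the titles, either wild type (WT, the parental line) or carrying the C48S mutation of Oct4 (clone 46). Each line was sequenced undifferentiated and after retinoic acid (RA), with 3 libraries in each of the 4 groups.

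Undifferentiated cells of both lines were grown with the MEK inhibitor PD03259010 at 1 µM, the GSK3b inhibitor CHIR99021 at 3 µM and ascorbic acid. RA cells of both lines were kept without LIF in 1.5 mg/L RA for 2 days, and it is not stated if the inhibitors or ascorbic acid were still present. The RA groups therefore differ from the undifferentiated groups in more than RA, and "with RA" below stands for the whole change of medium. The titles and the protocol give day 2 for every RA library, whereas the treatment field gives days 2, 3 and 4 for the WT libraries and days 5, 6 and 7 for the C48S libraries. If that field were right, time and line could not be told apart in the RA state. The mutant line is a single clone, so the mutation and the clone cannot be told apart. The labels do not say that libraries of a group came from separate cultures, so p-values measure only the spread between these libraries. In bulk RNA, fewer cells of a type and less RNA per cell cannot be told apart.

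Hox proteins bind DNA with low selectivity on their own, and Pbx and Meis or Pknox proteins form complexes with them that bind longer sites. Pbx proteins contact Hox proteins directly, while Meis and Pknox proteins bind Pbx through a conserved domain at their N-terminal end and help to bring it into the nucleus. Meis and Pknox proteins compete for Pbx. Tgif1 has a TALE homeodomain but acts as a repressor that recruits corepressors to Smad proteins of TGF-beta signalling and to retinoid receptors. RA is a classical inducer of 3′ Hox genes and of Meis genes in pluripotent cells.

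Total counts ranged from 8678088 to 13597098 per library. C48S undifferentiated replicate 3 stood apart: set against the other libraries of its group, its counts gave chi-square values of 8.87 and 8.68 per degree of freedom, where every other pair within a group gave at most 2.15. Values without it are given below for the calls that changed and the larger shifts. Pluripotency markers were high in all undifferentiated libraries, with the summed level of 8 genes at 3687 to 3806 CPM (the usual unit of counts scaled to a common library size) in WT and 4220 to 4364 CPM in C48S. The higher sum was not shared by all, as 3 of the 8 were higher in C48S, 3 lower and the median log2 change 0.025. After RA the sum of the 8 genes was 95.5 to 105 CPM in WT cells and 510 to 551 CPM in C48S, so the RA groups differed in these markers. Pou5f1, which encodes Oct4, stood at 585 ± 5.10 CPM in WT cells and 557 ± 83.4 CPM in C48S before RA, and at 23.0 ± 1.07 and 68.3 ± 3.20 CPM after RA (SD, n = 3), and gene counts do not show the base change. All 10 fibroblast and feeder markers were detected in each group, summing to 333 to 367 CPM in WT cells and 453 to 611 CPM in C48S before RA, and to 230 to 235 and 354 to 359 CPM after RA. After RA the higher sum in C48S was that of Pdgfrb (223 against 85.1 CPM), with 1 of 9 markers tested higher in C48S, 4 lower and a median of -0.58.

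Promoter sequences were looked up in RefSeq (build GRCm38.p6) because members of the family bind the sites that the table can be searched for. Of the 9 genes, 6 had windows there, with 5 alternative starts for Tgif1. Shown 5′ to 3′ on the gene's strand are the sequences before the start of Meis1, the gene with the highest fold change, of Pbx2, the gene with the highest level per exon length after RA, and of 1 start of Tgif1, which fell with RA. Each ends before the first base of any exon annotated in GENCODE M21, which uses the same build. This leaves out the last 16 bases before the Meis1 start and the last 24 before the Tgif1 start. Distances below are counted from the start itself, not from the end of the sequence shown. Capitals mark matches to a motif.
Meis1, chr11:19018986-19019219, minus strand: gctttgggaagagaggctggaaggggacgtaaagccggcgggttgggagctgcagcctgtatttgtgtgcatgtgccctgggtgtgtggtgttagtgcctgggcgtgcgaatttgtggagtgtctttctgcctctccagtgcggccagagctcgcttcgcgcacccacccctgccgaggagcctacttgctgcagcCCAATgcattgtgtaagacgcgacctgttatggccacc
Pbx2, chr17:34592009-34592258, plus strand: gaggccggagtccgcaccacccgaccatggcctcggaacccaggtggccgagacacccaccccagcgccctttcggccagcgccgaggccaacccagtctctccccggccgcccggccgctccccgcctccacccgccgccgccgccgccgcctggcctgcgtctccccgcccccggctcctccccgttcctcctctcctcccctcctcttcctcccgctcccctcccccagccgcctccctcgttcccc
Tgif1, chr17:70849815-70850040, minus strand: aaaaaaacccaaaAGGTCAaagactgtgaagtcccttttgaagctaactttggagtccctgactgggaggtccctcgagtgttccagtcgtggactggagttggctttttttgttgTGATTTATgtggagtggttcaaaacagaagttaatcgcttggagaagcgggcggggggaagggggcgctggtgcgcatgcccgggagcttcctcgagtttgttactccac

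The motifs searched on both strands of the 250 bases before each start were the Meis and Pknox core TGACAG, the Pbx-Hox site TGATNNAT, the retinoid receptor half-site AGGTCA, its direct repeats with 2 or 5 bases between (named DR2 and DR5, which contain the half-site) and CCAAT. Among 32851 windows, TGACAG was held by 15.9%, TGATNNAT by 7.68%, AGGTCA by 14% and CCAAT by 33.8%, while each direct repeat was held by 0.00913%. The Meis1 window had 1 CCAAT match, 54 bases before the start. The Pbx2 window had no match, and 77.6% of its bases were G or C, against a median of 52.4% over all windows. The Tgif1 window shown had TGATTTAT, a match to the Pbx-Hox motif, 134 bases before its start, and AGGTCA 237 bases before it. Of the Tgif1 starts, this alone matched either motif. In windows not printed, Meis2 had 1 CCAAT match and Pbx4 had 2, and another Tgif1 start had 1. Meis3 and the remaining Tgif1 starts had no match to any motif. A match describes the letters of a window and nothing of binding.

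**Figure D1:**
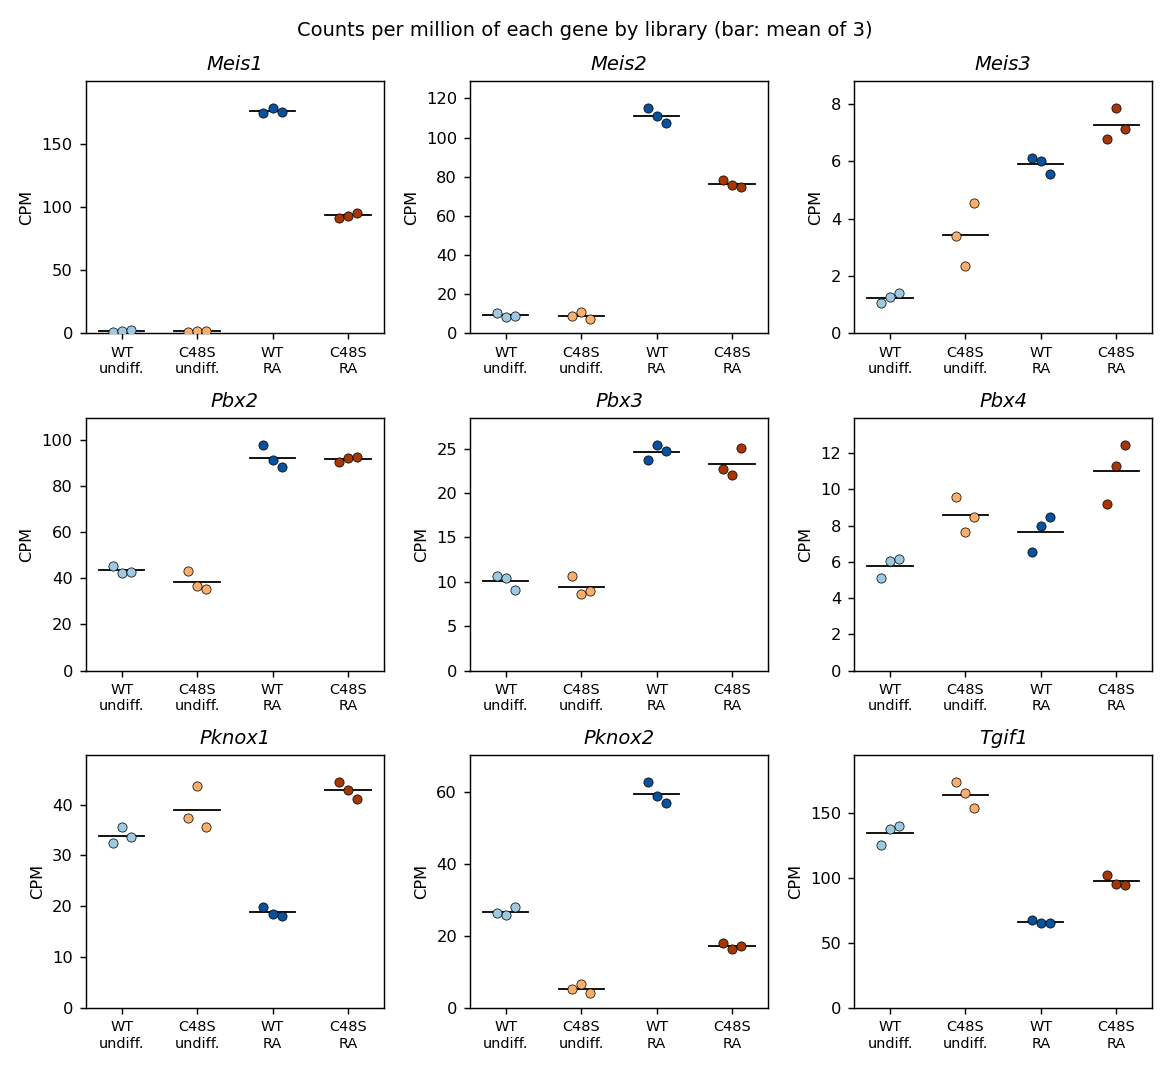
Level of each gene in CPM (vertical axes, starting at 0) in the 12 libraries, by group on the horizontal axis. Points are libraries and bars are means of 3. Meis1 sits at 1.05 to 3.04 CPM before RA and at 91.7 to 179 CPM after it.

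In WT cells the Meis genes had the lowest levels per length of the 9 genes before RA and the highest fold changes with it, and Meis1 and Meis2 rose less in C48S. Meis1 (chromosome 11, bases 18829817 to 18968985, minus strand, GRCm39), a Hox cofactor best known from haematopoiesis and leukaemia, had 1.05, 1.6 and 3.04 CPM in WT before RA. These values rest on 10, 19 and 28 counts. After RA the same line had 175, 179 and 175 CPM, far above every undifferentiated library. Meis1 rose in WT by 6.56 ± 0.12 on the log2 scale (SE, n = 3 per group, adjusted p = 3.18e-32, edgeR quasi-likelihood test with Benjamini-Hochberg adjustment), which is 94.2-fold. The SE of each log2 change, here and below, was derived from the F value of its test. With so few counts before RA, the SE of this change may be too small. The change ran from 6.29 to 7.01 over 13 alternatives.

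In C48S cells, Meis1 stood at 1.53, 1.6 and 1.76 CPM before RA and at 91.7, 93.4 and 95.5 CPM after it. It rose by 5.84 ± 0.13 (adjusted p = 1.27e-29), or 57.3-fold. All C48S RA libraries lay below all WT RA libraries, and Meis1 was lower in C48S after RA by a log2 change of -0.91 ± 0.065 (adjusted p = 3.75e-14). Before RA the groups overlapped and the change of -0.20 ± 0.27 (95% interval -0.74 to 0.35, adjusted p = 0.568) did not pass the test. The RA change was smaller in C48S by the interaction term (C48S change with RA less the WT change), at -0.72 ± 0.28 (adjusted p = 0.0411). That call was lost under 9 of 18 alternatives, and its value ran from -0.47 (adjusted p = 0.214) without WT undifferentiated replicate 1 to -1.19 (adjusted p = 0.00160) without WT undifferentiated replicate 3.

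Genes of chromosome 11 were lower in C48S as a whole, with a median log2 change of -0.53 before RA and -0.48 after it over 1167 genes. Chromosome values here and below use protein-coding genes that averaged 1 CPM or more. Meis1 lay 0.33 above that median before RA. After RA its value minus the median was -0.44, and 14.2% of the chromosome's genes had a lower value. What part the chromosome has in the Meis1 difference was not tested. Exons of Meis1 share 1029 bases with Gm37818 on the same strand, which had 247 counts over all 12 libraries. Pairs in the shared bases may thus not have been credited to Meis1.

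Meis2 (chromosome 2, bases 115693545 to 115896320, minus strand), a cofactor active in heart, neural crest and forebrain, had 10.3, 8.65 and 8.89 CPM in WT cells and 8.99, 10.8 and 7.14 CPM in C48S before RA. The lines overlapped there, and the change of -0.046 ± 0.13 (95% interval -0.30 to 0.21, adjusted p = 0.783) did not pass. Without C48S undifferentiated replicate 3 it was 0.089 (adjusted p = 0.598). After RA it stood at 115, 111 and 107 CPM in WT cells and at 78.1, 75.9 and 74.9 CPM in C48S. Every library after RA was above every library before it, and the C48S libraries were below the WT libraries. Meis2 rose by 3.59 ± 0.092 in WT (adjusted p = 8.57e-28) and by 3.09 ± 0.094 in C48S (adjusted p = 2.81e-25), a 12-fold and 8.52-fold change. The RA change was smaller in C48S by -0.50 ± 0.15 (adjusted p = 0.00614), and after RA the level in C48S was lower by a log2 change of -0.54 ± 0.069 (adjusted p = 3.27e-08). The median of chromosome 2 was -0.0068 before RA and 0.021 after it.

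Meis3 (chromosome 7, bases 15909015 to 15920429, plus strand), known for its part in hindbrain patterning in vertebrate embryos, was the least changed of the Meis genes with RA. In WT it had 1.05, 1.26 and 1.41 CPM before RA and 6.11, 6.00 and 5.57 CPM after it. In C48S it had 3.39, 2.34 and 4.55 CPM before RA and 6.76, 7.86 and 7.13 CPM after it. The lines did not overlap in either state, with C48S above WT, though before RA the values rest on 10 to 15 counts per WT library. Meis3 was higher in undifferentiated C48S by 1.46 ± 0.28 (adjusted p = 2.76e-05), or 2.76-fold. After RA the change of 0.29 ± 0.18 (95% interval -0.064 to 0.65, adjusted p = 0.161) did not pass. It rose with RA by 2.24 ± 0.25 in WT (adjusted p = 6.22e-10) and by 1.07 ± 0.19 in C48S (adjusted p = 8.95e-06), and the interaction was -1.17 ± 0.33 (adjusted p = 0.00481). Without C48S undifferentiated replicate 3, the library highest in Meis3 among those 3, the difference before RA was 1.23 (adjusted p = 0.000379) and the interaction -0.94 (adjusted p = 0.0262).

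The Pbx genes rose with RA in both lines, and for none of them did the RA change differ between lines past the test's threshold. Pbx2 (chromosome 17, bases 34810240 to 34816374, plus strand), a broadly expressed partner of Hox proteins, had 45.4, 42.4 and 42.8 CPM in WT cells and 43.1, 36.7 and 35.4 CPM in C48S before RA. After RA it had 97.7, 91.3 and 88.1 CPM in WT cells and 90.4, 92.2 and 92.6 CPM in C48S. RA libraries lay above undifferentiated libraries in both lines, and the lines overlapped in both states. Pbx2 rose by 1.08 ± 0.069 in WT (adjusted p = 3.12e-16) and by 1.25 ± 0.069 in C48S (adjusted p = 1.08e-17). The interaction of 0.17 ± 0.098 (95% interval -0.034 to 0.37, adjusted p = 0.188) did not pass, though it did without C48S undifferentiated replicate 1 (0.26, adjusted p = 0.0392). Without replicate 3 of that group, the library that stood apart, it was 0.10 (adjusted p = 0.396).

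Pbx2 was lower in undifferentiated C48S by a log2 change of -0.18 ± 0.075 (adjusted p = 0.0459). That call was lost under 9 of 14 alternatives, among them without C48S undifferentiated replicate 3 (-0.11, adjusted p = 0.197). After RA the change of -0.0095 ± 0.064 (95% interval -0.14 to 0.12, adjusted p = 0.912) did not pass. Exons of Pbx2 share 227 bases with Gpsm3 on the same strand, which had 645 counts over all libraries.

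Pbx3 (chromosome 2, bases 34061469 to 34263154, minus strand), a cofactor studied in the nervous system and in leukaemia with Meis1, had 10.7, 10.4 and 9.11 CPM in WT cells and 10.7, 8.63 and 9.0 CPM in C48S before RA. After RA it had 23.7, 25.4 and 24.7 CPM in WT cells and 22.7, 22.1 and 25.1 CPM in C48S. RA libraries lay above undifferentiated libraries in both lines, and the lines overlapped in each state. It rose by 1.29 ± 0.11 in WT (adjusted p = 1.50e-12) and by 1.30 ± 0.11 in C48S (adjusted p = 1.79e-12). The interaction was 0.0097 ± 0.16 (95% interval -0.32 to 0.34, adjusted p = 0.974). C48S against WT gave -0.087 ± 0.13 before RA (adjusted p = 0.592) and -0.078 ± 0.097 after it (adjusted p = 0.524), neither passing the test. Without C48S undifferentiated replicate 3 the difference before RA was -0.045 (adjusted p = 0.814) and the interaction -0.034 (adjusted p = 0.902).

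Pbx4 (chromosome 8, bases 70285141 to 70324942, plus strand), a Pbx gene best known from the testis, was higher in C48S in both states. Before RA it had 5.14, 6.05 and 6.18 CPM in WT cells and 9.59, 7.67 and 8.48 CPM in C48S. After RA it had 6.53, 7.98 and 8.50 CPM in WT cells and 9.22, 11.3 and 12.4 CPM in C48S. The lines did not overlap in either state, with a log2 change of 0.57 ± 0.16 before RA (adjusted p = 0.00343) and 0.51 ± 0.15 after it (adjusted p = 0.00348). Genes of chromosome 8 were higher in C48S by a median of 0.52 before RA and 0.58 after it over 739 genes, so Pbx4 lay 0.054 above that median before RA, and its value minus the median was -0.066 after RA.

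With RA Pbx4 rose by 0.41 ± 0.17 in WT (adjusted p = 0.0273) and by 0.35 ± 0.14 in C48S (adjusted p = 0.0316), where the groups overlapped. These were the smallest RA changes called among the 9 genes, and they were lost under 4 of 13 and 5 of 13 alternatives. DESeq2 gave an adjusted p of 0.0637 in WT and 0.105 in C48S. The interaction was -0.060 ± 0.22 (95% interval -0.51 to 0.39, adjusted p = 0.859).

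The Pknox genes had the largest differences between the lines after RA among the 9 genes, in opposite directions. Pknox1 (chromosome 17, bases 31783708 to 31826667, plus strand), a widely expressed Pbx partner needed in the early mouse embryo, had 32.4, 35.5 and 33.7 CPM in WT cells and 37.4, 43.7 and 35.7 CPM in C48S before RA. After RA it had 19.9, 18.4 and 18.1 CPM in WT cells and 44.4, 42.9 and 41.2 CPM in C48S. WT libraries after RA were thus below all others, while C48S libraries after RA overlapped those before it. Pknox1 fell in WT by 0.85 ± 0.092 on the log2 scale (adjusted p = 2.55e-10). In C48S the change of 0.14 ± 0.081 (95% interval -0.023 to 0.31, adjusted p = 0.115) did not pass, though it did without C48S undifferentiated replicate 2 (0.20, adjusted p = 0.0365). Without replicate 3 of that group, the library that stood apart, it was 0.091 (adjusted p = 0.317). The interaction was 0.99 ± 0.12 (adjusted p = 2.98e-08), and after RA Pknox1 was 2.28-fold higher in C48S (1.19 ± 0.088, adjusted p = 8.88e-14).

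Before RA, Pknox1 was higher in C48S by 0.20 ± 0.084 (adjusted p = 0.0477), a call lost under 7 of 14 alternatives, such as RLE scaling (0.17, adjusted p = 0.0777), and 0.11 (adjusted p = 0.319) without C48S undifferentiated replicate 2. The median of chromosome 17 was 0.030 before RA and 0.080 after it. After RA, 95.2% of the genes of that chromosome had a lower value than Pknox1 for C48S against WT.

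Pknox2 (chromosome 9, bases 36802278 to 37058703, minus strand), a relative of Pknox1 with a more restricted expression, had 26.2, 25.9 and 27.9 CPM in WT cells and 5.26, 6.61 and 4.14 CPM in C48S before RA. After RA it had 62.6, 58.8 and 56.8 CPM in WT cells and 17.9, 16.2 and 17.2 CPM in C48S. The highest C48S RA library was below the lowest undifferentiated WT library. Pknox2 was lower in C48S by a log2 change of -2.32 ± 0.12 before RA (adjusted p = 8.20e-18), or 4.99-fold lower, and of -1.79 ± 0.090 after it (adjusted p = 2.26e-18), or 3.47-fold lower. The median of chromosome 9 was 0.046 before RA and 0.045 after it, and 1.66% and 1.02% of its 784 genes had a lower value than Pknox2.

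Pknox2 rose with RA by 1.16 ± 0.087 in WT (adjusted p = 3.01e-14) and by 1.68 ± 0.13 in C48S (adjusted p = 6.71e-14). The RA change was larger in C48S, with an interaction of 0.53 ± 0.16 (adjusted p = 0.00808). Without C48S undifferentiated replicate 3, the lowest library in Pknox2, the interaction was 0.38 (adjusted p = 0.0537) and no longer passed, while the difference between lines before RA was -2.17 (adjusted p = 3.54e-37).

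Tgif1 (chromosome 17, bases 71151200 to 71160541, minus strand), the repressor of TGF-beta and retinoid signalling, fell with RA in both lines, alone among the 9 genes. It had 125, 138 and 140 CPM in WT cells and 173, 165 and 154 CPM in C48S before RA. After RA it had 67.1, 65.3 and 65.0 CPM in WT cells and 102, 95.4 and 94.5 CPM in C48S. Neither the lines nor the states overlapped, with C48S above WT in each state. Tgif1 fell by 1.03 ± 0.059 on the log2 scale in WT (adjusted p = 1.78e-17) and by 0.75 ± 0.056 in C48S (adjusted p = 3.15e-14). It was higher in C48S by 0.29 ± 0.055 before RA (adjusted p = 3.06e-05) and by 0.56 ± 0.060 after it (adjusted p = 5.39e-10), and the interaction was 0.27 ± 0.081 (adjusted p = 0.00696).

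**Figure D2:**
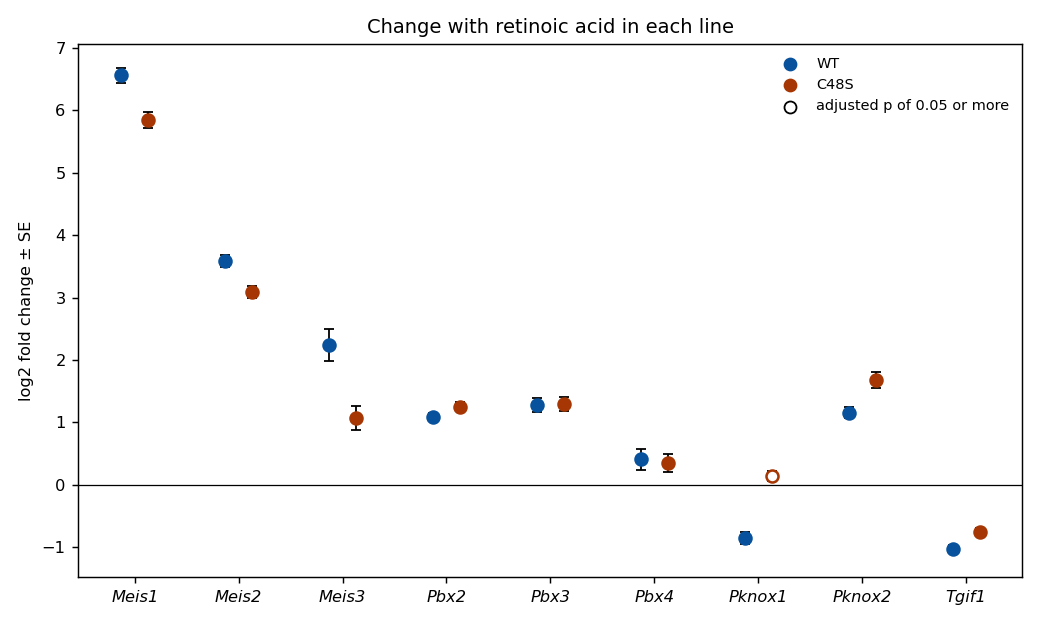
Change of each gene with RA, as log2 fold change (vertical axis) in WT and in C48S, with bars of 1 SE (n = 3 libraries per group) and open points where the adjusted p was 0.05 or more. Meis1 has the largest value in both lines, at 6.56 and 5.84, and Pknox1 lies at -0.85 in WT and 0.14 in C48S.

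In WT, 7 of the 9 genes rose with RA and 2 fell. Over all genes tested, 78.3% were called, 40.9% higher and 37.4% lower. In C48S, 7 rose and 1 fell, where 73.6% of all genes were called, 39.0% higher and 34.6% lower. The medians of the 9 were 1.16 in WT and 1.25 in C48S, against 0.055 and 0.049 over all genes. Groups did not overlap for 9 of 9 in WT and 7 of 9 in C48S, where 80.9% and 73.8% of all genes did not overlap. These comparisons use separate libraries for each line.

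The RA change differed between the lines for 6 of the 9 genes, a smaller log2 change for the 3 Meis genes and a higher one for Pknox1, Pknox2 and Tgif1. Over all genes, 39.4% were called, 22.2% higher and 17.2% lower. The median of the 9 was 0.0097, against 0.023 over all genes. Without C48S undifferentiated replicate 3 the interaction was called for 2 higher and 2 lower. It was then -0.63 for Meis2, 0.93 for Pknox1 and 0.22 for Tgif1, which kept their calls, and -0.67 for Meis1 (adjusted p = 0.0859), which did not. Of all genes tested, 413 fell with RA in WT and rose in C48S, which is 2.30%, and 269 did the reverse, 1.50%. None of the 9 was in either set.

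**Figure D3:**
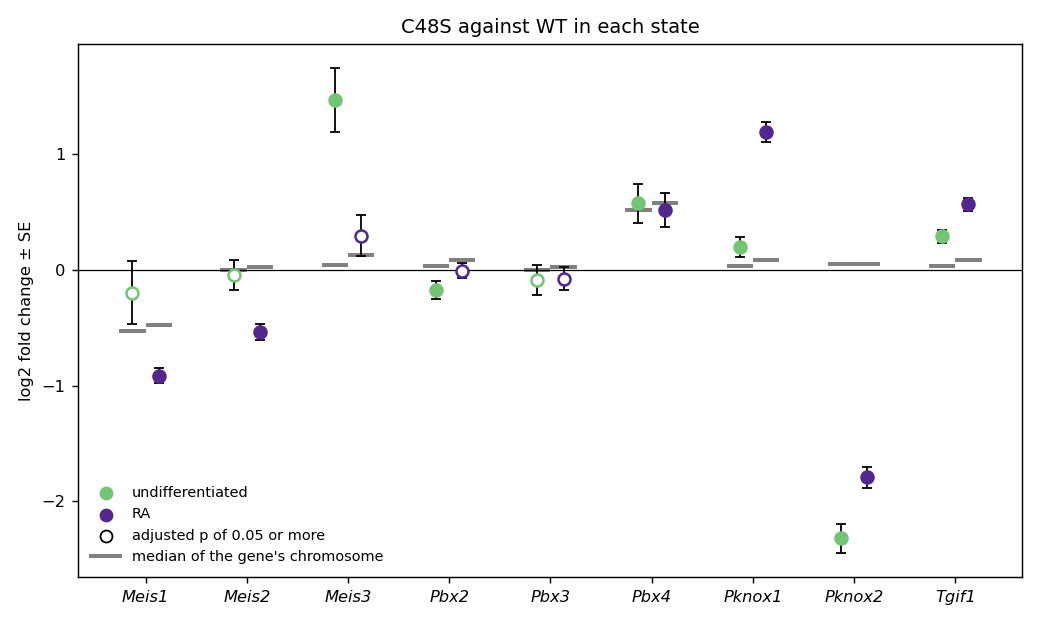
C48S against WT, as log2 fold change (vertical axis) of each gene before RA and after it. Bars are 1 SE (n = 3 libraries per group), and open points have an adjusted p of 0.05 or more. Grey dashes are medians of the protein-coding genes on the same chromosome that averaged 1 CPM or more. Pknox2 lies at -2.32 and -1.79 with its chromosome near 0, and Pbx4 lies at 0.57 and 0.51 beside chromosome medians of 0.52 and 0.58.

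Between the lines before RA, 4 of the 9 genes were higher in C48S (Meis3, Pbx4, Pknox1, Tgif1) and 2 lower (Pbx2, Pknox2). The background was 55.6% called, 27.5% higher and 28.1% lower. Without C48S undifferentiated replicate 3, 4 were higher and 1 lower, with 0.25 for Pknox1 and 0.34 for Tgif1. After RA, 3 were higher (Pbx4, Pknox1, Tgif1) and 3 lower (Meis1, Meis2, Pknox2), where 54.5% of all genes were called, 28.8% higher and 25.7% lower. The medians of the 9 were -0.046 before RA and -0.0095 after it, against 0.0014 and 0.023 over all genes. Groups did not overlap for 5 of 9 before RA and 7 of 9 after it, where 58.3% and 62.6% of all genes did not. Calls for 6 of 9 in each state are thus near the share of all genes. After RA, C48S also held more of the pluripotency markers, and what part that has in these differences was not tested.

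To compare levels between genes, counts were divided by exon length (RPKM, which is CPM per kilobase of exon). In undifferentiated WT the order was Tgif1 at 23.8 ± 1.43 RPKM, Pbx2 at 12 ± 0.446, Pknox1 at 4.89 ± 0.226, Pbx4 at 2.61 ± 0.256, Pknox2 at 2.58 ± 0.104, Pbx3 at 1.65 ± 0.138, Meis2 at 0.770 ± 0.0729, Meis3 at 0.391 ± 0.0572 and Meis1 at 0.180 ± 0.0975 (SD, n = 3). Only Pbx4 and Pknox2 overlapped among neighbours in that order. Tgif1 stood above 85.6% of the genes tested and Meis1 above 10.9%.

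After RA the WT order was Pbx2 at 25.4 ± 1.35 RPKM, Meis1 at 16.7 ± 0.193, Tgif1 at 11.7 ± 0.206, Meis2 at 9.22 ± 0.324, Pknox2 at 5.75 ± 0.283, Pbx3 at 4.03 ± 0.136, Pbx4 at 3.46 ± 0.460, Pknox1 at 2.71 ± 0.139 and Meis3 at 1.86 ± 0.0912. No neighbours overlapped. Meis1 moved from the last place to the second, above 84.3% of the genes tested.

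In undifferentiated C48S, Tgif1 (29.1 ± 1.76 RPKM), Pbx2 (10.5 ± 1.14), Pknox1 (5.61 ± 0.608) and Pbx4 (3.87 ± 0.434) led without overlap. Pbx3 (1.55 ± 0.180), Meis3 (1.08 ± 0.348), Meis2 (0.744 ± 0.151) and Pknox2 (0.516 ± 0.120) followed, each overlapping the next, and Meis1 was last at 0.155 ± 0.0112. After RA the C48S order was Pbx2 at 25.2 ± 0.324, Tgif1 at 17.3 ± 0.699, Meis1 at 8.88 ± 0.178, Meis2 at 6.34 ± 0.138, Pknox1 at 6.18 ± 0.232, Pbx4 at 4.96 ± 0.737, Pbx3 at 3.82 ± 0.262, Meis3 at 2.28 ± 0.175 and Pknox2 at 1.65 ± 0.0839, with overlap between Meis2 and Pknox1 alone. Pbx2 thus led after RA in both lines, and Pknox2 was the fifth in WT and the last in C48S. Summed over the 9 genes, RPKM was 48.9 ± 1.43 in WT and 53.2 ± 3.27 in C48S before RA, and 80.8 ± 1.77 and 76.6 ± 0.443 after it.

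**Figure D4:**
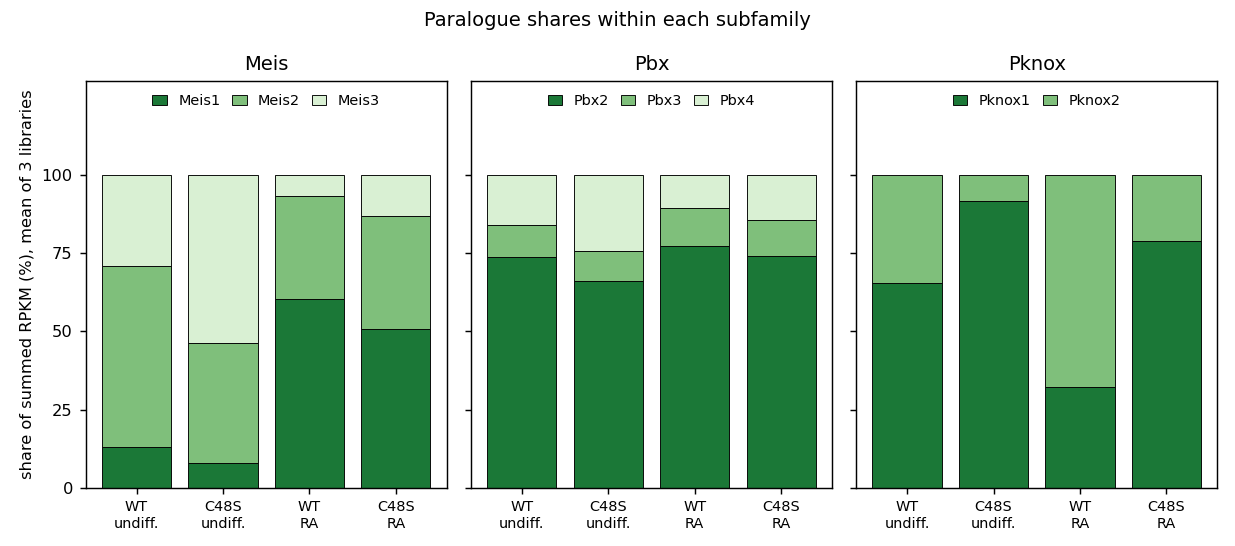
Share of each paralogue in the summed RPKM of its subfamily (vertical axis, percent, mean of 3 libraries) in the 4 groups, for Meis, Pbx and Pknox. Pknox1 makes up 65.4% and 32.0% of the Pknox sum in WT before and after RA, and 91.7% and 78.9% in C48S.

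The largest share of the Pknox and Meis sums passed from 1 paralogue to another between groups. Of the summed RPKM of Pknox1 and Pknox2, Pknox1 held 64.8%, 67.2% and 64.3% in the undifferentiated WT libraries and 32.2%, 31.8% and 32.2% in the WT RA libraries. In C48S it held 91.4%, 90.8% and 92.8% before RA and 78.7%, 79.8% and 78.1% after it. Pknox2 was thus the more abundant transcript per length in WT after RA and in no other group. The sum of the 2 genes varied less, at 7.47 ± 0.224 RPKM in WT and 6.13 ± 0.724 in C48S before RA, and 8.46 ± 0.421 and 7.83 ± 0.274 after it (SD, n = 3).

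Of the Meis sum, Meis1 held 13.1% ± 6.00 in WT and 7.84% ± 0.590 in C48S before RA. After RA it held 60.2% ± 0.966 and 50.7% ± 0.840. In undifferentiated WT, Meis2 held 57.8% ± 8.2. In undifferentiated C48S, Meis3 held 53.8% ± 12 and Meis2 38.4% ± 11.5, but in replicate 2 Meis2 was above Meis3, at 0.894 against 0.739 RPKM. On counts not divided by length, Meis2 was the largest before RA in both lines, at 75% in WT and 63.6% in C48S, where Meis3 held 24.7%. The Meis sum was 1.34 ± 0.114 RPKM in WT and 1.98 ± 0.205 in C48S before RA, and 27.8 ± 0.429 and 17.5 ± 0.162 after it. Pbx2 held most of the Pbx sum in each group, from 66.1% ± 1.34 in undifferentiated C48S to 77.2% ± 2.25 in WT after RA. The Pbx sum was 16.2 ± 0.277 and 16.0 ± 1.70 RPKM before RA, and 32.9 ± 0.800 and 34.0 ± 1.22 after it, in WT and C48S.

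Among the 9 genes, Pbx2 and Pbx3 had the most similar profiles over the 12 libraries, with a distance of 0.362 between their centred log2 CPM values. Pknox1 and Tgif1 followed at 1.23. Among 13923 protein-coding genes that averaged 1 CPM or more, the nearest to Pbx2 were Cpt2 (0.325) and Man2a2 (0.327), and to Pbx3 P4ha1 (0.348) and Homer2 (0.349). The nearest to Meis1 were BC048679 (1.19) and 5730596B20Rik (1.34), to Meis2 Loxl2 (0.270) and Ppl (0.492), and to Meis3 Zfp358 (0.539) and Fam196a (0.577). For Pknox2 they were Veph1 (1.01) and Mfap4 (1.01). For Tgif1 they were Ap1m1 (0.194) and Cherp (0.209), for Pknox1 Mtus1 (0.281) and Slc7a6 (0.324), and for Pbx4 Fbxo25 (0.437) and Actr5 (0.441). Of these last 6, all but Actr5 lie on chromosome 8, as does Zfp358, and genes of that chromosome were higher in C48S as a whole. It had 739 protein-coding genes that averaged 1 CPM or more. Pbx4 lies on chromosome 8, but Pknox1 and Tgif1 lie on chromosome 17. What part the chromosome has in this likeness was not tested. The libraries share 2 lines and 2 states, so many genes have similar profiles.

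The counts for the gene lists that follow are to be read against the shares of all genes called, which were 55.6% and 54.5% for C48S against WT before and after RA, 78.3% and 73.6% for RA in WT and C48S, and 39.4% for the interaction. Of 8 further genes, the Irx homeobox genes and Mkx of the TALE class and Pbxip1, which binds Pbx proteins, 7 passed the filter. All 7 rose with RA in WT (median 1.61), and 6 rose in C48S (median 1.16). Irx3, a patterning gene of the neural tube, went from 1.18 ± 0.383 to 15.2 ± 0.761 CPM in WT cells and from 3.02 ± 1.19 to 8.80 ± 1.35 CPM in C48S. Its RA change was smaller in C48S by -2.11 ± 0.34 (adjusted p = 4.80e-06). The interaction was also lower for Irx2 (-1.36 ± 0.19, adjusted p = 5.93e-07) and Pbxip1 (-0.48 ± 0.12, adjusted p = 0.00135), and none was higher. Before RA 2 of the 7 were higher in C48S and none lower, and after RA 1 was higher and 3 were lower, among them Irx2 (-1.08 ± 0.12, adjusted p = 1.61e-09). Over all genes 27.5% were higher and 28.1% lower before RA, and 28.8% and 25.7% after it.

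The partners of these cofactors moved with RA in both lines. All 15 of the 3′ Hox genes rose, with a median of 4.66 in WT and 4.33 in C48S. Hoxb1, whose autoregulatory enhancer binds Pbx and Meis or Pknox proteins, had 2 counts in all over undifferentiated WT and 0 over undifferentiated C48S, and reached 128 ± 8.80 and 132 ± 5.74 CPM. The interaction was called for 3 of the 15, higher for Hoxa3 (1.07 ± 0.30, adjusted p = 0.00466) and Hoxd4 (2.73 ± 0.82, adjusted p = 0.00776) and lower for Hoxc4 (-0.76 ± 0.29, adjusted p = 0.0358).

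After RA, 6 of the 15 were higher in C48S and 4 lower, and before RA 4 were higher and none lower. Hoxa3 was higher after RA by 1.93 ± 0.11 (adjusted p = 4.37e-17). It lies on chromosome 6, whose 659 genes had a median of 0.58 before RA and 0.63 after it for C48S against WT.

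Of 10 genes with described enhancers bound by TALE proteins, which include 5 of the Hox genes above, 8 passed the filter. With RA 7 rose and 1 fell in each line. The eye and forebrain regulator Pax6 went from 0.673 ± 0.223 to 9.63 ± 0.274 CPM in WT cells and from 0.0628 ± 0.0551 to 3.28 ± 0.931 CPM in C48S, and was lower in C48S after RA (-1.53 ± 0.20, adjusted p = 2.96e-08). Aldh1a2, which makes RA, was lower in undifferentiated C48S (-1.97 ± 0.21, adjusted p = 5.15e-10), at 2.77 ± 0.619 against 11.1 ± 1.21 CPM. Before RA, 2 of the 8 were higher in C48S and 2 lower. After RA, 3 were higher and 3 lower, and the interaction was higher for 2 and lower for none.

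All 9 RA-inducible genes rose in both lines, with a median of 5.39 in WT and 5.11 in C48S. After RA, 6 were higher in C48S and 3 lower, among them Cdx1, an activator of Hox genes, at 343 ± 2.53 CPM against 91.7 ± 2.7 in WT (1.90 ± 0.065, adjusted p = 7.57e-21). Before RA, 2 were higher and 2 lower. The interaction was higher for 4, Cdx1 included (1.29 ± 0.11, adjusted p = 1.99e-11), and lower for 1. Over all genes 22.2% were higher and 17.2% lower. Any relation of these changes to those of the Meis genes was not tested.

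Of 10 partners of Tgif1 in repression of TGF-beta targets, 4 rose and 5 fell with RA in WT, and 4 rose and 4 fell in C48S. The corepressor gene Ctbp2 went from 299 ± 3.97 to 47.6 ± 2.41 CPM in WT cells and from 234 ± 18.7 to 79.8 ± 2.92 CPM in C48S. The histone deacetylase gene Hdac1 went from 494 ± 5.11 to 213 ± 5.39 CPM in WT cells and from 397 ± 14.5 to 266 ± 5.97 CPM in C48S. The interaction was higher for 7 of the 10 and lower for none, where 22.2% of all genes were higher and 17.2% lower, with Ctbp2 at 1.10 ± 0.081 (adjusted p = 2.09e-13) and Hdac1 at 0.64 ± 0.064 (adjusted p = 3.90e-10). Before RA 4 were higher in C48S and 6 lower, and after RA 5 were higher and 2 lower. The pluripotency markers had the same direction, with the interaction higher for 8 of 8.

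Markers of other cell types were measured beside these genes. Before RA the sums in WT and C48S were 71.7 to 76.2 and 60.8 to 70.8 CPM for neural markers, 46.0 to 58.2 and 44.3 to 52.3 CPM for trophoblast markers, 20.1 to 22.6 and 21.7 to 23.2 CPM for primitive endoderm markers, and 7.81 to 9.07 and 4.34 to 5.18 CPM for mesoderm markers. Afp and Ttr, which mark primitive endoderm, were at 0 in both lines before RA. Neural markers summed to 103 to 105 CPM in WT cells and 74 to 75.2 CPM in C48S after RA, with all 9 detected in each group. The lower sum was that of Nes (35.1 against 81.8 CPM), while 4 of 8 markers tested were higher in C48S (Sox1, Neurog1, Zic1, Olig2) and 2 lower, with a median of 0.41. Trophoblast markers summed to 79.6 to 88.1 CPM in WT cells and 128 to 141 CPM in C48S after RA, with all 7 detected. Cdx2 (38.2 against 2.95 CPM) and Tfap2c (54.5 against 29.8 CPM) were higher in C48S, and 2 of the 6 tested, Krt7 and Plac1, were lower, with a median of 0.081. Primitive endoderm markers summed to 78.6 to 80.9 CPM in WT cells and 88.7 to 93.0 CPM in C48S after RA, where Ttr was at 0 in C48S, and mesoderm markers to 12 to 12.3 and 9.91 to 11.3 CPM. Of those tested, 3 of 7 primitive endoderm markers were higher in C48S and 2 lower, and 1 of 4 mesoderm markers was higher and 1 lower. The part of these markers in the levels of the 9 genes was not tested.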

How the data were processed

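Total RNA was prepared with a column kit and depleted of ribosomal RNA, per the labels' protocols. The authors deposited raw counts per gene, from featureCounts 1.6.3, run on read pairs with strand option 2, assignment by largest overlap and the Ensembl GRCm39 release 104 models, per the file headers. The gene length in bases, the other value used, came from the same deposited files. STAR 2.7.9a, DESeq2 and mm39 are named in the submitters' processing notes. Symbols were matched to GENCODE M21, used for names and for the exon bounds of promoter windows (52083 of 55416 identifiers, 94%). Unused per-sample columns numbered 0.

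Libraries were grouped by title. The test was edgeR's quasi-likelihood test (version 4.0.16, R 4.3.3) after filterByExpr at a minimum count of 10 and TMM scaling, with a fit over 4 group means and 12 libraries (8 residual degrees of freedom). P-values were adjusted by Benjamini-Hochberg over all 17940 genes, and a gene was called at an adjusted p under 0.05. CPM and RPKM use the TMM library sizes, and log2 CPM a prior count of 2. The scripts were tested on simulated data. No test was made of levels, sums or shares. Marker genes outside the naming rule were named after their values were seen.

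The genes and lists were chosen with earlier results of these data known. All 9 genes are named in each comparison. From each other list up to 3 genes with the smallest adjusted p in a comparison could be named, and for likeness the 2 protein-coding genes at the smallest Euclidean distance. Levels of Pou5f1 are given as a check. Alternatives were RLE scaling, DESeq2 1.42.0, other filters, the compared groups alone, fewer genes, the replicate block and leaving out each library. Some items are not reported here.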

Additional observations from a re-analysis of the deposited data

Results flagged for a closer look

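The change with RA differed between WT and C48S by the interaction test, at an edgeR adjusted p under 0.05, for these genes, with values as the log2 change with RA in C48S less the same change in WT. Among the 9 cofactors it was -0.72 for Meis1, -0.50 for Meis2, -1.17 for Meis3, 0.99 for Pknox1, 0.53 for Pknox2 and 0.27 for Tgif1. Meis1 and Pknox2 lost the call when single libraries were left out. Among the related TALE genes it was -1.36 for Irx2, -2.11 for Irx3 and -0.48 for Pbxip1. Among the 3′ Hox genes it was 1.07 for Hoxa3, -0.76 for Hoxc4 and 2.73 for Hoxd4. Hoxd4 rests on 10 counts over the undifferentiated WT libraries and 3 over the undifferentiated C48S libraries. Among the RA-inducible genes and the genes with TALE-bound enhancers it was 1.07 for Aldh1a2, 0.38 for Cyp26b1, 0.78 for Stra8 and 1.29 for Cdx1. Among the partners of Tgif1 it was 0.64 for Hdac1, 1.10 for Ctbp2 and 0.40 for Sin3a. Over all genes 39.4% were called in this comparison.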

How the results depend on the processing

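Over the 9 genes, the alternatives gave 665 values, and 628 kept their side of the threshold. The call was lost for 35 and gained for 2, and 0 reversed a call. Values not called could change sign, such as Meis1 in C48S against WT before RA, which ran from -0.47 to 0.26. All values for C48S against WT after RA kept their side. Before RA, the number of the 9 genes called lower in C48S was 1 in place of 2 under DESeq2, without a low-count filter, with the compared groups alone and without genes on chromosomes 6, 8, 11 and Y, and 1 to 2 when single libraries were left out, as Pbx2 lost its call. The interaction of Meis1 was lost without a low-count filter (adjusted p = 0.0506) and without each of 8 libraries: WT undifferentiated replicates 1 (0.214) and 2 (0.126), C48S undifferentiated replicates 1 (0.0636), 2 (0.0618) and 3 (0.0859), WT RA replicate 2 (0.0571) and C48S RA replicates 1 (0.0559) and 2 (0.0505). With RLE scaling the summed RPKM in C48S after RA was 75.7 in place of 76.6. Shares taken on counts, not per length, were 11.6% and 52.8% for Meis1 in C48S before and after RA, 68.0% for Pbx2 in undifferentiated C48S and 74.1% in WT after RA, and 56.0%, 88.0%, 24.0% and 71.5% for Pknox1 in WT and C48S before RA and WT and C48S after it. The shares on counts differ from those per length only in the division by length. What caused the other shifts and the lost calls was not tested. No shared deviation of same-numbered libraries was seen (correlations from -0.053 to 0.029, 0 of 18 over 0.1), and the main fit did not pair them. Counting noise in single libraries can hide a shared deviation, so this does not show that the samples are unpaired. With the replicate block no call of the 9 genes changed, and the genes called numbered 9858 before RA and 9638 after it for C48S against WT, 13969 and 13092 for RA in WT and C48S, and 6938 for the interaction. The low counts of Meis1 and Meis3 before RA limit the precision of their changes.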
